A study of Homo sapiens with 40 samples.

Results

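The 10 genes described here encode transcription factors of the luminal lineage of the mammary gland: GATA3, FOXA1, SPDEF, XBP1, TFAP2A, TFAP2C, ELF3, GRHL2, TRPS1 and TBX3. They were chosen by name and matched by Ensembl identifier in the count tables, which list 60279 genes. Of the 10 genes, 9 had reads in at least 1 kept cell and XBP1 had none. T47D, a human luminal breast cancer cell line, was profiled as single cells at passage 10 with 3 full-length protocols that copy polyadenylated RNA: G&T, a non-commercial method that separates RNA from genomic DNA (13 cells), the Takara SMART-seq HT kit (13 cells) and the NEB NEBNext Single Cell/Low Input kit (14 cells). The labels name no treatment, and all cells were sorted as live cells positive for EpCAM and CD49f and received the same amount of ERCC spike-in RNA. After removal of 7 cells of low quality, 11 cells of each protocol were kept, 33 of 40 in all. The cells of each protocol were sequenced in 1 run of their own. Effects of the protocol and of its run therefore cannot be told apart, and the cells do not replicate the protocol. Differences are therefore given beside the spread and the overlap of the cells, with no test.

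Luminal cells of the mammary gland line the milk ducts, and their identity is held by a small network of transcription factors. GATA3 and FOXA1 open chromatin at the enhancers that the estrogen receptor uses, and the AP-2 factors TFAP2A and TFAP2C occupy many of the same sites. SPDEF and ELF3 are epithelial members of the ETS family, GRHL2 maintains junction genes of epithelia, TRPS1 is an atypical GATA factor that represses transcription, TBX3 is a T-box repressor active in mammary development, and XBP1 drives the unfolded protein response of secretory cells.

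The end of the coding sequence is shown for SPDEF and TFAP2A, the factors with the lowest and the highest ratio of NEB over Takara below among those that passed the filter on low levels, for TFAP2C, the relative of TFAP2A, and for GATA3, whose levels in NEB and Takara were close. The untranslated 3′ part of the transcript lies between these stretches and the poly(A) tail. Each line holds the last 150 coding bases, stop codon included, 5′ to 3′ on the strand of the gene, from the longest coding transcript of GENCODE release 44 on GRCh38, and capitals mark runs of 4 or more G or C. SPDEF lies on chromosome 6 (34537802 to 34556333, minus strand), TFAP2A on chromosome 6 (10393186 to 10419659, minus strand), GATA3 on chromosome 10 (8045378 to 8075198, plus strand) and TFAP2C on chromosome 20 (56629306 to 56639283, plus strand).
SPDEF: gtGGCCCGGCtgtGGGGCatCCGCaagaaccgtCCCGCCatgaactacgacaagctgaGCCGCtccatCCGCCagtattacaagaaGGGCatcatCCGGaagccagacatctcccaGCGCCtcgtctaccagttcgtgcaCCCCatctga
GATA3: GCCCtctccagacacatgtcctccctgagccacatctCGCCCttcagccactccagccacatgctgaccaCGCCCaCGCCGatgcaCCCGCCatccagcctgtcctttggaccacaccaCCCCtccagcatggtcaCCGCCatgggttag
TFAP2A: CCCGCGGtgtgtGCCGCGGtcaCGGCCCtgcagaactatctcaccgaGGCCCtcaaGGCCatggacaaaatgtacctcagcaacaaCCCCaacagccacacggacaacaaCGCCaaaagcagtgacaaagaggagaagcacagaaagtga
TFAP2C: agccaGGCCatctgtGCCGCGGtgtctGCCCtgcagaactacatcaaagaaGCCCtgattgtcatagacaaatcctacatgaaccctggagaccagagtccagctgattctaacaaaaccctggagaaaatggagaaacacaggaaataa
The GC content of these stretches was 60.7% in SPDEF, 64.0% in GATA3, 56.7% in TFAP2A and 48.0% in TFAP2C. Over the longest transcript with its untranslated parts it was 64.6% in SPDEF, above 95.6% of protein-coding genes, and lower in GATA3 (53.7%), TFAP2C (50.4%) and TFAP2A (49.4%). The coding ends thus ranked these genes differently from the whole transcripts, and the comparisons with GC content below use the whole transcripts. The AP-2 pair, although members of 1 gene family, shared no coding stretch longer than 14 identical bases. The first of this length was gaggactgcgagga, and the ends printed above hold a further one.

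The kept cells held 658154 to 1166633 reads on genes with G&T, 818512 to 1287911 with Takara and 624772 to 963816 with NEB. A median of 11253, 10983 and 5161 genes was detected per cell, and ERCC spike-ins took 1.90%, 0.960% and 11.6% of the pooled libraries, respectively. Levels are given in CPM, read counts scaled to a common number of reads on genes, per cell or for the pooled reads of the 11 cells, and exact 95% Poisson intervals of pooled levels cover counting error only. Where 3 values stand in a row without a name, they follow the order G&T, Takara, NEB. All 8 luminal epithelial markers had reads in each protocol, with a summed level per cell of 3665 to 13498 CPM with G&T, 10803 to 27138 CPM with Takara and 1008 to 3636 CPM with NEB. Summed levels per cell were at most 142 CPM for 6 basal markers, 128 CPM for 7 mesenchymal markers and 54.7 CPM for 8 immune and endothelial markers, with KRT5, KRT14, LUM and PTPRC at or near 0. The part of these markers in the results below was not tested.

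GATA3 (ENSG00000107485), the zinc finger factor that specifies luminal cells, differed little between protocols when measured in CPM. It ranged over the cells from 357 CPM through a median of 743 to 1727 CPM in G&T. In Takara the range was 230, 557 and 1315 CPM, and in NEB 296, 636 and 1372 CPM. Every cell of every protocol carried GATA3 reads, and the ranges overlapped nearly in full. Pooled levels were 865 CPM with G&T (847 to 884), 649 CPM with Takara (634 to 663) and 667 CPM with NEB (649 to 685). Per-cell means were 852 ± 465 CPM (SD, n = 11 cells), 629 ± 341 CPM and 683 ± 324 CPM, so the gap of each pair was within the larger SD.

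FOXA1 (ENSG00000129514; chromosome 14, 37589552 to 37596059), a forkhead pioneer factor that the estrogen receptor depends on, likewise differed little between protocols in CPM. Cells ranged from 10.4 through 59.3 to 84.5 CPM in G&T and from 15.8 through 39.1 to 95.7 CPM in Takara. In NEB the lowest cell had no FOXA1 read, the median was 48.8 CPM and the highest cell 214 CPM. The spread between NEB cells, with a coefficient of variation (CV) of 101%, was thus wider than the 55.3% in G&T and 53.4% in Takara. Pooled levels were 47.7 CPM (43.4 to 52.3), 44.8 CPM (41.1 to 48.8) and 63.0 CPM (57.6 to 68.7), and each gap was within the larger SD of the cells.

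TRPS1 (ENSG00000104447; chromosome 8, 115408496 to 115809673), the atypical GATA factor, was highest in NEB and lowest in Takara. In Takara, cells held 89.3 CPM at the lowest, 237 CPM at the median and 297 CPM at the highest. In G&T the values were 366, 883 and 1648 CPM, so that every G&T cell was above every Takara cell. In NEB they were 1309, 2579 and 4352 CPM, above every Takara cell, and of the G&T cells only the highest, well C1, reached above the lowest NEB cell. Pooled levels were 838 CPM with G&T (820 to 857), 207 CPM with Takara (199 to 215) and 2512 CPM with NEB (2477 to 2547). The pooled level was 4.05-fold higher with G&T than with Takara (3.87 to 4.25), 3.00-fold higher with NEB than with G&T (2.92 to 3.08) and 12.2-fold higher with NEB than with Takara (11.6 to 12.7). Per-cell means were 845 ± 371 CPM (SD, n = 11 cells), 203 ± 69.9 CPM and 2533 ± 849 CPM. All 3 gaps between these means exceeded the larger SD.

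TFAP2A (ENSG00000137203) and TFAP2C (ENSG00000087510), the AP-2 factors of the luminal epithelium, were both highest in NEB. TFAP2A ranged from 23.0 through 60.3 to 156 CPM over G&T cells, from 15.9 through 33.6 to 73.5 CPM over Takara cells and from 344 through 548 to 1127 CPM over NEB cells. The lowest NEB cell was above the highest cell of both other protocols. Pooled levels were 78.3 CPM with G&T (72.8 to 84.1), 37.0 CPM with Takara (33.6 to 40.7) and 607 CPM with NEB (591 to 625), a 7.76-fold difference of NEB over G&T (7.18 to 8.39) and a 16.4-fold difference over Takara (14.9 to 18.1). Per-cell means were 78.0 ± 44.7, 36.5 ± 17.8 and 602 ± 273 CPM (SD, n = 11 cells), and both gaps to NEB exceeded its SD. The 2.11-fold higher pooled level in G&T than in Takara (1.88 to 2.39) was within the larger SD of the cells, which overlapped.

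TFAP2C, whose sequence end is printed above beside that of TFAP2A, differed less between protocols. Cells ranged from 31.0 through 69.0 to 127 CPM with G&T, from 4.89 through 69.9 to 100 CPM with Takara and from 94.2 through 312 to 573 CPM with NEB. G&T and Takara cells covered nearly the same range, and only the low end of NEB reached into it. Pooled TFAP2C was 73.4 CPM with G&T (68.0 to 79.0), 66.8 CPM with Takara (62.2 to 71.7) and 325 CPM with NEB (312 to 337). NEB was 4.43-fold above G&T (4.07 to 4.82) and 4.86-fold above Takara (4.48 to 5.27), gaps larger than the SD of the NEB cells (mean 330 ± 165 CPM, n = 11 cells).

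GRHL2 (ENSG00000083307; chromosome 8, 101492439 to 101669726), the grainyhead factor of epithelial junctions, followed the order of TRPS1 with smaller gaps. Cells ranged from 60.7 through 105 to 220 CPM with G&T, from 6.30 through 47.5 to 76.4 CPM with Takara and from 93.4 through 198 to 458 CPM with NEB. All NEB cells were above all Takara cells, while NEB and G&T cells overlapped. Pooled GRHL2 was 114 CPM (108 to 121) with G&T, 42.8 CPM (39.2 to 46.8) with Takara and 233 CPM (222 to 244) with NEB. The G&T level was 2.67-fold that of Takara (2.40 to 2.97), and the NEB level was 2.03-fold that of G&T (1.89 to 2.19) and 5.43-fold that of Takara (4.92 to 6.01), with each gap of the means beyond the larger SD (115 ± 49.8, 42.2 ± 23.0 and 241 ± 125 CPM, n = 11 cells each).

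SPDEF (ENSG00000124664), an ETS factor of secretory luminal cells and the member with the highest GC content, was highest in Takara and nearly undetected in NEB. Takara cells held 189 CPM at the lowest, 374 CPM at the median and 772 CPM at the highest, and G&T cells 62.8, 193 and 334 CPM. In NEB the lowest and the median cell had no read, 3 of 11 cells had any (exact binomial interval 6.02% to 61.0%), and the highest cell reached 18.2 CPM, below every cell of the other protocols. The pooled level was 452 CPM with Takara (440 to 465), 201 CPM with G&T (192 to 211) and 2.26 CPM with NEB (1.34 to 3.57), the latter from 18 reads of which well D2 held 66.7%. SPDEF was 200-fold higher in Takara than in NEB (127 to 338), 89.2-fold higher in G&T than in NEB (56.3 to 151) and 2.25-fold higher in Takara than in G&T (2.13 to 2.37), and each gap exceeded the larger SD (means 205 ± 88.6, 433 ± 184 and 2.48 ± 5.53 CPM, n = 11 cells each). Without that NEB cell the pooled NEB level was 0.820 CPM, and the log2 ratio of NEB over Takara went from -7.12 to -7.96 and that of NEB over G&T from -5.96 to -6.80.

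ELF3 (ENSG00000163435; chromosome 1, 202007945 to 202017183), the other ETS factor of the set, was low in all protocols. It had reads in 7 of 11 G&T cells (exact binomial interval 30.8% to 89.1%), 10 of 11 Takara cells (58.7% to 99.8%) and 5 of 11 NEB cells (16.7% to 76.6%). The lowest cell had no read in each protocol, the median cell had 1.52, 10.3 and 0 CPM, and the highest cell 18.4, 24.0 and 39.8 CPM. ELF3 was thus seen in most Takara cells, and its NEB reads lay in few cells at higher levels. Thinned to the smallest kept library of 672328 reads, the expected numbers of cells with ELF3 were 6.89, 9.94 and 4.99. Pooled levels were 5.68 CPM (4.27 to 7.42), 9.73 CPM (8.03 to 11.7) and 10.8 CPM (8.63 to 13.3), and the cells of all protocols overlapped. With at least 10 reads asked per cell, 3 G&T, 6 Takara and 3 NEB cells had ELF3. ELF3-AS1, an antisense RNA, and a further non-coding gene share 9.24% of the exon bases of ELF3, and without a stated strand setting, reads from those bases cannot be told apart.

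TBX3 (ENSG00000135111; chromosome 12, 114670255 to 114684175), the T-box repressor, was low in G&T and Takara and without a read in NEB. Its reads were in 7 of 11 G&T cells, up to 11.8 CPM, and in 9 of 11 Takara cells (exact binomial interval 48.2% to 97.7%), up to 28.0 CPM, with medians of 3.72 and 6.77 CPM. For 0 of 11 NEB cells the same interval reaches 28.5%, and 3 reads, the limit that a count of 0 allows, correspond to 0.376 CPM in the pooled NEB library. Pooled levels were 4.63 CPM in G&T (3.37 to 6.22) and 9.47 CPM in Takara (7.79 to 11.4). Against the NEB limit TBX3 was at least 12.3-fold higher in G&T and at least 25.2-fold higher in Takara. With at least 10 reads asked, TBX3 remained in 1 G&T cell and 5 Takara cells.

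XBP1 (ENSG00000100219), the bZIP factor of the unfolded protein response, was listed at 0 in all 40 deposited cells. Protein-coding neighbours on chromosome 22 between XBP1 (28794555 to 28800597) and 29168333 on GRCh38 were also at or near 0, with 1 read of ZNRF3 and none of C22orf31 and KREMEN1 over the 40 cells, while CCDC117 before them had 136 reads and RHBDD3 after them 938. Of 19550 listed protein-coding genes, 22.8% had no read in any deposited cell. This share counts any gene without reads and does not tell whether XBP1 was silent in these cells. No annotated exon of another gene in GENCODE release 44 covers XBP1. What put XBP1 at 0 was not tested, and no fold or spread is given for it.

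**Figure D1:**
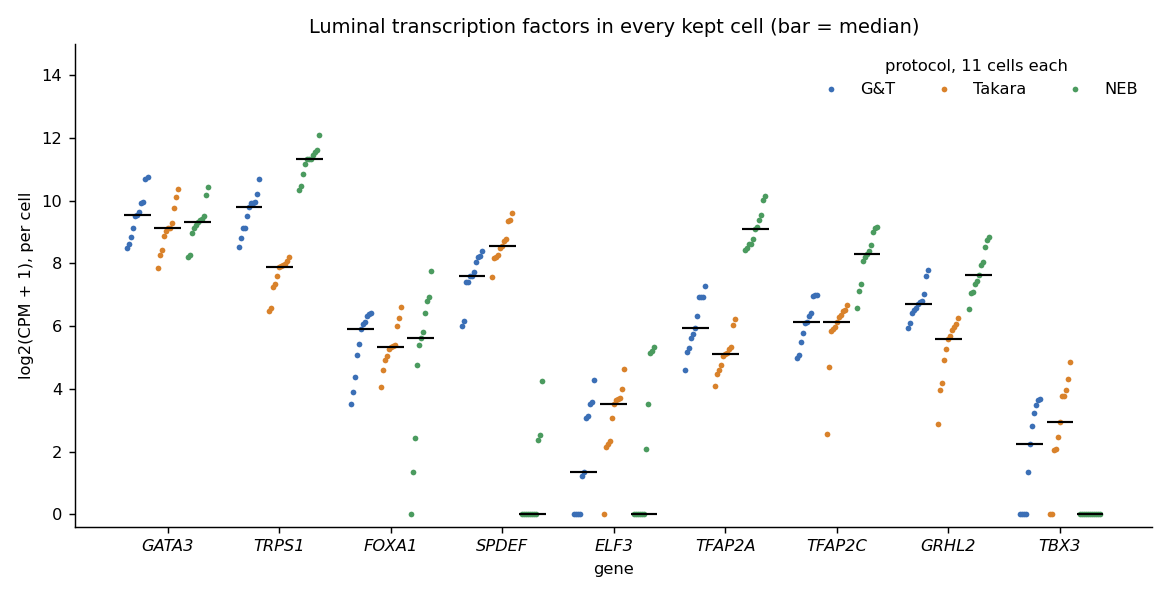
Level of the 9 detected factors in each of the 33 kept cells, as log2(CPM + 1) on the vertical axis, by gene and protocol; points are cells and bars medians over 11 cells. TFAP2A, TRPS1, GRHL2 and TFAP2C are highest in NEB, SPDEF lies at 0 in 8 of 11 NEB cells, and GATA3 ranges overlap in all 3 protocols.

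The median ratio of the factors lay above that of all genes in both pairs with NEB and below it between Takara and G&T. Ratios were taken as log2 of (pooled CPM + 1) over genes with a mean pooled level of at least 5 CPM in the pair, which 9 factors passed for Takara and G&T and 8 for the pairs with NEB, where TBX3 was too low; SPDEF passed these pairs, and TBX3 that of Takara and G&T, through the protocol in which it was higher. The median log2 ratio of Takara over G&T was -0.13 over the factors and 0.07 over 9992 genes. For NEB over G&T it was 0.92 over the factors and -0.35 over 9603 genes, and for NEB over Takara 1.37 and -0.33 over 9472 genes.

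Of 9 factors, SPDEF alone was at least 2-fold higher in Takara than in G&T, as were 19.3% of all genes tested. TFAP2A, GRHL2 and TRPS1, 3 of 9, were at least 2-fold higher in G&T, as were 18.5% of genes. No factor had every Takara cell above every G&T cell, which 1.85% of genes did, and TRPS1 had every G&T cell above every Takara cell, which 0.961% of genes did. The cells of the other 8 factors overlapped in this pair.

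In the pairs with NEB, 4 factors were high and SPDEF was low. TFAP2A, TFAP2C, GRHL2 and TRPS1, 4 of 8, were at least 2-fold higher in NEB than in G&T, beside 22.5% of genes, and SPDEF, 1 of 8, was at least 2-fold higher in G&T, beside 38.5% of genes. Every NEB cell was above every G&T cell for TFAP2A, beside 1.58% of genes, and every G&T cell above every NEB cell for SPDEF, beside 4.92% of genes. The same 4 factors were at least 2-fold higher in NEB than in Takara, beside 25.0% of genes, and SPDEF again was at least 2-fold higher in Takara, beside 39.1% of genes. Here TFAP2A, GRHL2 and TRPS1 had every NEB cell above every Takara cell, beside 2.30% of genes, and SPDEF had every Takara cell above every NEB cell, beside 11.5% of genes. The comparisons with NEB share the NEB cells, so their counts are not independent of each other.

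**Figure D2:**
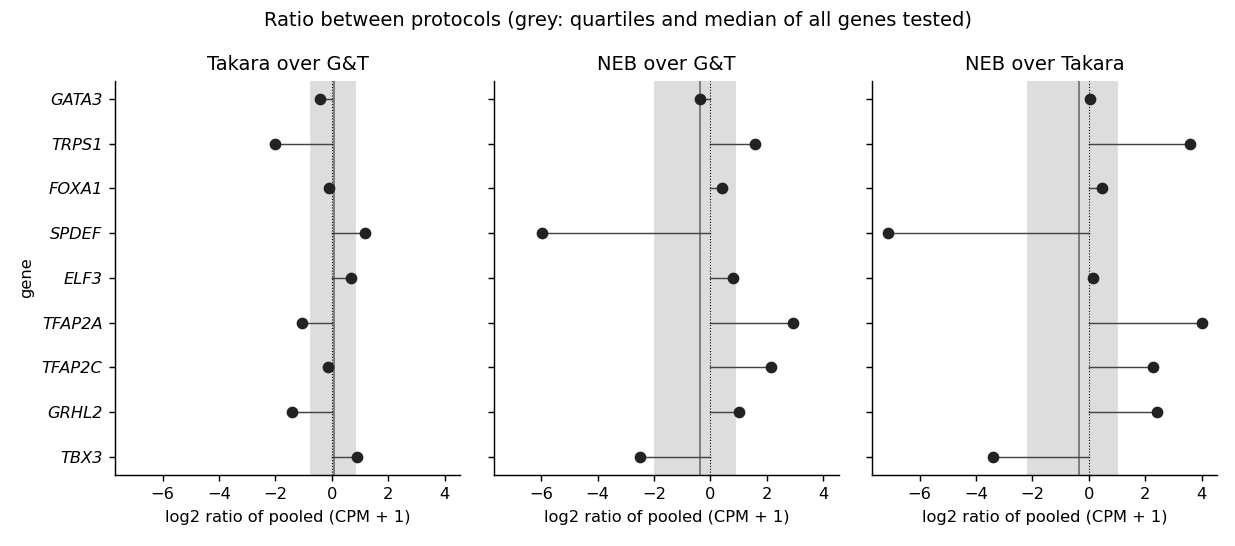
Log2 ratio of pooled (CPM + 1) on the horizontal axis for each of 9 factors, in 3 pairs of protocols; points are factors, the grey band spans the quartiles and the grey line marks the median of all genes tested. In the pairs with NEB, TFAP2A, TFAP2C, GRHL2 and TRPS1 lie to the right of the band and SPDEF and TBX3 to its left; TBX3 is drawn at its NEB level of 0 and did not pass the filter there.

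The scale of the comparison matters for the factors that were high in NEB. ERCC reads per read on genes were more frequent with NEB, and per 1000 ERCC reads TRPS1 had 43.4 reads with G&T, 21.3 with Takara and 19.2 with NEB. On that scale GRHL2 had 5.92, 4.42 and 1.78 reads, and TFAP2C 3.80, 6.89 and 2.48 reads. Both were thus lowest in NEB, and the NEB over G&T and NEB over Takara ratios of TRPS1, GRHL2 and TFAP2C changed direction. TFAP2A alone stayed highest in NEB, with 4.64 reads against 4.05 in G&T and 3.82 in Takara, at 1.21-fold of Takara in place of 16.4-fold. GATA3 had 5.09 reads per 1000 ERCC reads in NEB, beside 44.8 in G&T and 66.9 in Takara, and FOXA1 had 0.481 in NEB, beside 2.47 and 4.62. The near equal CPM levels of GATA3 and FOXA1 were thus not equal on this scale.

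The ratios of the factors ran with GC content in the same direction as those of all genes. For NEB over Takara the Spearman coefficient between GC content of the longest transcript and log2 ratio was -0.63 over 9429 genes and -0.92 over the 9 detected factors, with TBX3 at its NEB level of 0. For NEB over G&T it was -0.60 and -0.80, and for Takara over G&T 0.16 and 0.85. Length of the longest transcript ran with the ratios too, with coefficients of -0.34 over all genes and -0.55 over the factors for Takara over G&T, 0.08 and 0.33 for NEB over G&T and 0.26 and 0.50 for NEB over Takara. These coefficients are across genes of the same pooled libraries and are given as a description, and the part of GC content or length in the ratios was not tested. For NEB over Takara, SPDEF (64.6% GC) had the lowest ratio and TRPS1 (40.1% GC), the detected factor with the lowest GC content, the second highest after TFAP2A. For NEB over G&T, TRPS1 (1.58) came after TFAP2A (2.94) and TFAP2C (2.13).

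For NEB over Takara, all 9 detected factors lay outside the quartiles of genes of like GC content. By definition, as many of these genes lie outside their quartiles as within them. TBX3 is counted here although it did not pass the filter on low levels in the pairs with NEB. Genes were split by GC content into 5 bins of equal number, and in the bin of 49.1% to 55.9% GC the quartiles of the NEB over Takara log2 ratio were -3.01 and -0.16. TFAP2A (4.00), GRHL2 (2.41), TFAP2C (2.26), FOXA1 (0.48) and GATA3 (0.04) of that bin were above the upper quartile, and TBX3 (-3.39), at 0 in NEB, below the lower one. ELF3 (0.14) and TRPS1 (3.60) were above the upper quartiles of their own bins, -1.66 and 1.45. The place of ELF3 rests on pooled reads, since its log2 ratio by the median over cells was -3.50. SPDEF (-7.12) was below the lower quartile of the bin of highest GC content, -4.44. For NEB over G&T 7 of 9 factors lay outside the quartiles, with GATA3 and TBX3 within. For Takara over G&T 4 of 9 did, with GATA3, FOXA1, TFAP2C, ELF3 and TBX3 within, which is near the share of all genes.

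**Figure D3:**
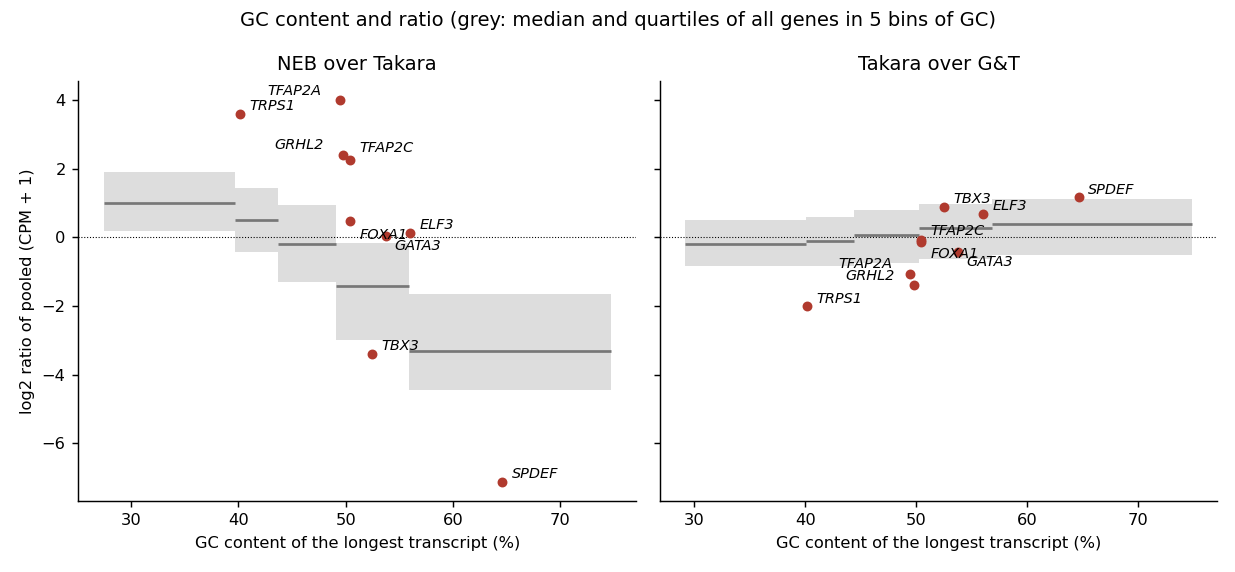
GC content of the longest transcript in percent on the horizontal axis and log2 ratio of pooled (CPM + 1) on the vertical axis, for NEB over Takara and for Takara over G&T; red points are factors, and grey lines and boxes are the medians and quartiles of all genes in each of 5 bins of GC content. Between NEB and Takara the medians of the bins fall from 1.01 to -3.30, and TFAP2A, at 4.00, and SPDEF, at -7.12, stand outside the boxes.

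Compared per kilobase of exon, which adjusts for length but not for GC content, the leading factor by pooled level differed between protocols. Only in G&T was its gap to the next factor beyond the larger SD of the cells. In G&T the order of pooled levels was GATA3 (255 CPM per kb), SPDEF (105), TRPS1 (75.9), TFAP2C (24.4), GRHL2 (18.9), FOXA1 (10.8), TFAP2A (9.53), ELF3 (0.791) and TBX3 (0.777). GATA3 was above SPDEF, TRPS1 above TFAP2C and TFAP2A above ELF3 by more than the larger SD of the cells, while the other neighbours were not apart. In Takara SPDEF led with 236 CPM per kb, next to GATA3 with 191 CPM per kb, a gap within the spread, and TFAP2C (22.3) and TRPS1 (18.7) followed, with GATA3 above TFAP2C, TRPS1 above FOXA1 and TFAP2A above TBX3 by more than the larger SD. In NEB TRPS1 led with 227 CPM per kb, followed by GATA3 (196), TFAP2C (108) and TFAP2A (73.9) without a gap beyond the spread, whereas TFAP2A was above GRHL2 and GRHL2 above FOXA1 beyond it. SPDEF stood in the 8th place in NEB, with 1.18 CPM per kb. With the length of the longest transcript in place of all exons, TFAP2A moved up by 1 place in each protocol, above TFAP2C in NEB (159 and 113 CPM per kb).

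**Figure D4:**
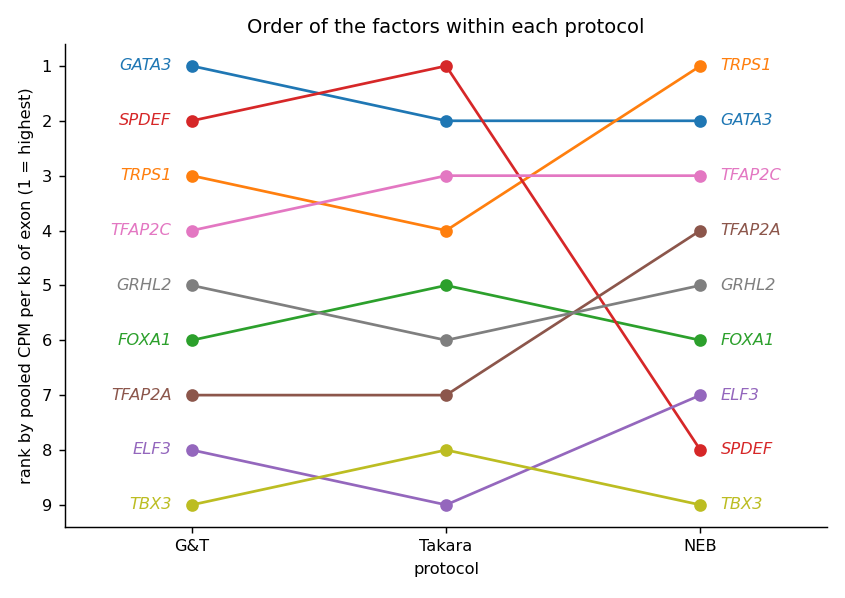
Rank of the 9 detected factors by pooled CPM per kilobase of exon, 1 being the highest, in each of 3 protocols; lines join the ranks of a gene. GATA3 stays first or second, SPDEF goes from rank 1 in Takara to rank 8 in NEB, and TRPS1 from rank 4 to rank 1.

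Apart from FOXA1, the factors that were abundant in NEB varied between cells about as much there as in the other protocols. Among genes with at least 20 CPM pooled, the median CV over cells was 63.5% with G&T, 43.2% with Takara and 109% with NEB. The factors above that level had a median CV of 47.4% (7 factors), 48.6% (7 factors) and 48.8% (6 factors). SPDEF was below that level in NEB, where its CV was 223%, and counts in the other medians only. The genes were not matched to the factors by level. TRPS1 was the least variable of them in Takara and NEB, at 34.4% and 33.5%, and FOXA1 in NEB the most variable. Subtracting counting noise moved the CV of TRPS1 to 33.7% and 33.4%.

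Correlations between the factors over the cells of a protocol were mostly weak. The median Spearman coefficient over pairs of factors with reads in every cell was 0.20 with G&T (21 pairs, -0.24 to 0.69), 0.33 with Takara (21 pairs, -0.23 to 0.74) and 0.15 with NEB (10 pairs, -0.54 to 0.48), each over 11 cells of 1 run that share its depth and composition. The highest pair was FOXA1 and TFAP2C with G&T, GATA3 and TRPS1 with Takara and GATA3 and GRHL2 with NEB. TFAP2A and GRHL2 had coefficients of 0.55 with G&T, 0.67 with Takara and -0.13 with NEB. With levels per ERCC read the medians were 0.45, 0.46 and 0.23. The level of TRPS1 in G&T went with the number of genes detected per cell, with a coefficient of 0.85, and that of SPDEF in Takara with the reads of the cell, with 0.81. These were the highest among the coefficients of all such factors with genes detected, reads and ERCC share. For TRPS1 and genes detected the coefficient was -0.14 in Takara and -0.05 in NEB, and for SPDEF and reads it was -0.01 in G&T.

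Genes were compared over the 33 cells by the Pearson correlation of log2(CPM + 1), centred within protocols. Only genes with reads in all of these cells were candidates, so FOXA1, SPDEF, ELF3 and TBX3 could not be chosen. The gene most like a factor was in no case another of the eligible factors. It was PRLR, the prolactin receptor, for TFAP2C (0.64), NFIA for TRPS1 (0.66), SORL1 for FOXA1 (0.72), CTTN, which encodes the actin-binding protein cortactin, for GRHL2 (0.50), C9orf78 for TFAP2A (0.57), LAMTOR5 for GATA3 (0.53) and EIF1 for SPDEF (0.52), each among 1287 or 1288 genes with reads in all of these cells. PRLR and TFAP2C had coefficients of 0.71, 0.88 and 0.54 within the protocols. For FOXA1 and SORL1 the coefficient was 0.68 in G&T and 0.79 in NEB but 0.06 in Takara. C9orf78 and TFAP2A had 0.82, 0.30 and 0.64. EIF1 and SPDEF had 0.41, 0.15 and 0.63, the last with SPDEF reads in only 3 NEB cells. As the most alike of many genes these values are a description.

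Relatives of the factors were mostly low. Of 27 members of the same gene families, 9 had at least 10 CPM pooled with G&T, 8 with Takara and 8 with NEB, and 9, 8 and 17 had no read. ELF5, an ETS factor of the alveolar lineage, had 64.3 CPM with G&T, 119 CPM with Takara and 214 CPM with NEB. EHF (49.3, 23.9 and 16.4 CPM) and ELF2 (38.5, 22.0 and 15.3 CPM) were lower, and GRHL1 reached 15.6, 21.0 and 47.4 CPM. Single NEB cells carried much of these levels, which were 8.44 CPM for EHF without well G2, 9.58 CPM for ELF2 without well A1 and 29.5 CPM for GRHL1 without well C1. With the highest cell of each gene left out, 4 of the 8 relatives remained at 10 CPM or more with NEB. GATA1, FOXA2, FOXA3, TFAP2B, ETS1, TBX5 and CREB3L1 had no read in any kept cell. Some bZIP relatives of XBP1 were present, with CREB3L4 at 133, 262 and 40.0 CPM, ATF6, the sensor of the parallel branch of the unfolded protein response, at 129, 51.0 and 101 CPM, and CREB3 with 534, 1890 and 88 pooled reads, of which the NEB reads lay in 3 cells and 50.0% of them in well C2.

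The estrogen and progesterone receptors, which work with these factors, showed the order of TRPS1 and GRHL2 in CPM. ESR1, which encodes the former, had 235 CPM pooled with G&T, 73.1 CPM with Takara and 877 CPM with NEB, and PGR, which encodes the latter and is a target of it, had 428, 164 and 1068 CPM. Per 1000 ERCC reads both were lowest in NEB, with 12.2, 7.54 and 6.69 reads of ESR1 and 22.1, 16.9 and 8.16 reads of PGR. FOXM1 (24.6 and 60.3 CPM) and RARA (14.7 and 9.22 CPM) had reads in G&T and Takara and none in NEB, where 3 reads correspond to 0.376 CPM. Of 14 receptors and cofactors compared, 11 had at least 10 CPM with G&T, 8 with Takara and 7 with NEB.

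Transcription factors of other lineages were mostly low or without a read. Of 19 such genes, 13 had no read with G&T, 15 with Takara and 17 with NEB, with SNAI2, TWIST1, ZEB1, SOX10, SPI1 and PAX5 among those without a read in any kept cell. FOXC1, a factor of basal-like tumours, was the only one to reach 10 CPM, with 14.2 CPM in NEB beside 1.79 CPM in G&T and 0.256 CPM in Takara. Its NEB reads lay in 3 of 11 cells, and without well A2 its NEB level was 7.10 CPM. SOX9, a factor of progenitor and duct cells in several epithelia, had 8.53, 2.82 and 2.38 CPM, in 8, 5 and 3 of 11 cells. Without the highest cell of each protocol its Takara level was 1.61 CPM (well D1) and its NEB level 0.274 CPM (well A1). The summed level of the 19 genes was at most 78.1 CPM in any cell, while that of the 10 luminal factors was at least 1144 CPM with G&T, 679 CPM with Takara and 3152 CPM with NEB.

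**Figure D5:**
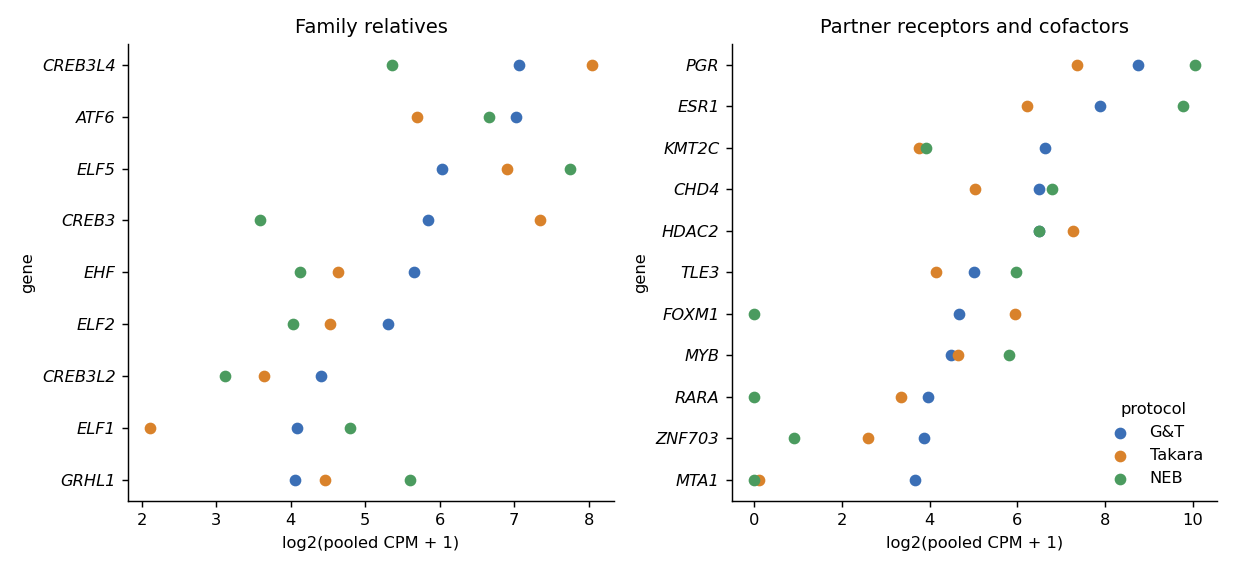
Pooled level as log2(CPM + 1) on the horizontal axis of the family relatives and of the partner receptors and cofactors that reached 10 CPM in at least 1 protocol, with 1 point per protocol. In CPM, ESR1 and PGR are highest in NEB and lowest in Takara, and FOXM1, RARA and MTA1 lie at 0 in NEB.

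Antisense genes overlap some factors, and reads from shared bases cannot be assigned without the strand. GATA3-AS1, which shares no exon base with GATA3, had 565 reads with G&T, 317 with Takara and 3 with NEB, while GATA3 itself had 8219, 7600 and 5317. TFAP2A-AS1 shares 5.33% of the exon bases of TFAP2A and had 0, 8 and 22 reads beside 744, 434 and 4844 of TFAP2A. TFAP2A-AS2 shares 11.4% of them and is not among the listed genes, so reads from these bases were not counted for it. Shared bases of FOXA1 with TTC6 were 0.362% and those of TBX3 with TBX3-AS1 3.29%.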

How the data were processed

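Single T47D cells were sequenced with 3 protocols, and the deposited tables hold the authors' raw read counts per gene, with no normalization and no molecular identifiers. Per the methods of the study, the authors trimmed reads with Trim Galore, checked them with FastQC, aligned them to GRCh38 with STAR and merged STAR's gene counts into 1 table per protocol. The annotation release and strand setting are not given in the sources used here. The 4 categories of unassigned reads (32.7% of all reads with G&T, 19.9% with Takara and 25.4% with NEB) and the 92 ERCC rows stayed out of library sizes.

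Cells were kept with at least 1000 genes, at least 600000 reads on genes and spike-ins, at most 30% mitochondrial and at most 25% ERCC reads. Reads were pooled over the kept cells of a protocol as CPM, with exact 95% Poisson intervals, and 1 CPM was added before log2 ratios. Ratios against 0 reads used 3 reads as the limit. All genes with a mean pooled level of at least 5 CPM served as background, called at 2-fold or where cells did not overlap. No test was made, since each protocol is 1 sample. Lengths, GC content and coding sequences came from GENCODE release 44, which matched 56104 of 60279 listed genes. Named genes are the 10 members, genes that overlap them, neighbours of XBP1 and the gene most like each member. Genes of the lists were named for at least 10 CPM in any protocol or for no read at all. SOX9, KRT5, KRT14 and PTPRC are named outside this rule, and some genes that meet it are not named. Some genes of the receptor and cofactor list are not reported here. The members, lists and alternatives were chosen with earlier results of these data known.

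Tables were handled in Python 3.11.15 (pandas 2.3.3 and numpy 2.4.6), intervals came from scipy 1.17.1 and figures from matplotlib 3.10.9, with TMM factors from edgeR 4.0.16 in R 4.3.3 as an alternative. Of the steps, only the pooled ratio and the 2-fold call were tested on simulated counts. These held 4-fold changes and no spread between cells beyond counting noise. Alternatives covered cells kept, denominators, pseudocount, filter, fold, scaling, detection limit, gene length, coefficients and leaving out cells.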

Additional observations from a re-analysis of the deposited data

Results flagged for a closer look

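The 7 cells removed for low quality enter no comparison, yet some held reads of the factors above the limit of 3 reads. TRPS1 had more than 3 reads in 5 of the 7 cells, which was the highest number. GATA3, FOXA1, TFAP2A, TFAP2C and GRHL2 each had more than 3 reads in 4 removed cells, SPDEF in 2 and TBX3 in 1. Both removed Takara cells had no read of any factor but 1 read of ELF3, with 15325 and 7990 reads on genes in all. SPDEF had 104 and 108 reads in the removed G&T cells and at most 2 in the removed NEB cells, and TFAP2A had 1660 and 326 reads in the removed NEB wells B2 and F2. XBP1 had none in these cells.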

How the results depend on the processing

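Reads per ERCC read, in place of CPM, reversed the log2 ratio of NEB over G&T for TFAP2C (-0.61), GRHL2 (-1.73) and TRPS1 (-1.18) and that of NEB over Takara for TFAP2C (-1.47), GRHL2 (-1.30) and TRPS1 (-0.15). No other alternative reversed a ratio of at least 2-fold. On the ERCC scale, 3 of 9 factors were at least 2-fold higher in Takara than in G&T, beside 49.3% of genes. In G&T over Takara 1 of 9 was, beside 7.47% of genes. In NEB over G&T and over Takara 0 of 9 were, beside 0.862% and 0.562% of genes. In G&T over NEB and in Takara over NEB 7 of 9 were, beside 90.2% and 95.4% of genes. Factors whose cells did not overlap were then 0 of 9 for G&T above Takara, beside 0.0398% of genes. They were 0 of 9 for NEB above G&T and for NEB above Takara, beside 0.0182% and 0.0173% of genes. They were 2 of 9 for G&T above NEB, beside 15.6% of genes, and 3 of 9 for Takara above NEB, beside 36.5%. By construction this scale follows the ERCC share, which was highest in NEB. At 1.5-fold, 3 of 9 factors were higher in Takara than in G&T, beside 32.4% of genes. At 4-fold, 0 of 9 were, beside 2.58% of genes, and 1 of 9 was higher in G&T than in Takara, beside 4.09%. At 4-fold, 2 of 8 were higher in NEB than in G&T, beside 8.37% of genes. With a mean of at least 1 CPM, TBX3 was also tested. Then 2 of 9 factors were at least 2-fold higher in G&T than in NEB, beside 44.5% of genes. In Takara over NEB 2 of 9 were, beside 42.2% of genes. With all deposited cells, 0 of 8 factors had every Takara cell above every NEB cell, beside 0.0738% of genes. This was because the 2 removed Takara cells had no SPDEF read. With the same cells 2 of 8 factors had every NEB cell above every Takara cell, beside 0.675% of genes. GRHL2 was lost through the removed NEB well F1, which had no read of it. By the median over cells in place of pooled reads, ELF3 went from 0.82 to -1.33 and FOXA1 from 0.39 to -0.28 in the log2 ratio of NEB over G&T, and ELF3 went from 0.14 to -3.50 for NEB over Takara and from 0.68 to 2.17 for Takara over G&T. SPDEF (0.95) and TFAP2A (-0.83) for Takara over G&T and GRHL2 (0.91) for NEB over G&T then fell short of 2-fold. Among ratios of the factors, leaving out 1 cell moved only those of SPDEF in the pairs with NEB by more than 1.5 times (1.79-fold). They ranged from -6.80 to -5.83 for NEB over G&T and from -7.96 to -6.99 for NEB over Takara. Some 2-fold calls hung on 1 cell. GRHL2 fell to 0.88 for NEB over G&T and TFAP2A came to -0.88 for Takara over G&T, short of 2-fold. ELF3 rose to 1.17 for NEB over G&T and 1.04 for Takara over G&T, and TBX3 to 1.11 for the latter, past 2-fold. TMM scaling changed no side of a 2-fold call but 1 in G&T over Takara, with 2 of 9 factors beside 17.1% of genes. Thinning to the smallest kept library left the numbers of cells with reads of each factor close to those unthinned, and levels from few reads, such as SPDEF in NEB, stay imprecise. The list genes were left out cell by cell as a choice made after seeing the data.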
